A study of Mus musculus with 6 samples.

Results

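The genes described here encode the factors of translation initiation, elongation and release other than eIF1, eIF5, eIF5A and the core eIF2 subunits. They were chosen by symbol alone, as all rows named Eif2, Eif3, Eif4, Eif6, Eef1 or Eef2, together with Etf1, Gspt1, Gspt2 and Abce1, with Eif2s1, Eif2s2 and Eif2s3x left out. The rule took 51 of the 10551 genes of the count table, and all 51 passed the filter on low counts. Bone marrow-derived macrophages, which are cells grown in culture from marrow progenitors, were sequenced from 3 libraries with the genotype Dhps_delta_Myel, a macrophage-specific knockout of Dhps, and from 3 control libraries. All 6 carry the strain label C57BL/6J. The driver of the deletion, any stimulus of the cells, the age of the mice and the animals or cultures behind each library are not given in the labels. A p-value here therefore measures the spread between these samples alone, and that spread may be technical.

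Translation of an mRNA begins when a cap-binding complex, eIF4F, unwinds the 5′ end and hands it to a small ribosomal subunit that is held by the scaffold eIF3 and carries the initiator tRNA on eIF2. The exchange factor eIF2B reloads eIF2 with GTP, and kinases that phosphorylate eIF2 block this step under stress. eEF1A then brings each aminoacyl-tRNA, eEF2 moves the ribosome on by a codon, and eRF1 with eRF3 ends the chain. Dhps encodes deoxyhypusine synthase, which starts the hypusine modification of eIF5A, a factor that works on the elongating and terminating ribosome beside those described here.

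Dhps itself had 13.2, 13.6 and 18.3 CPM (counts for each 1000000 of the library, scaled by the trimmed mean of M values) in knockout libraries, against 24.1, 20.9 and 23.4 CPM in control libraries. Every knockout library lay below every control library (log2 change -0.59 with SE 0.14), and the gene did not pass when edgeR's quasi-likelihood test was adjusted over the whole table (adjusted p = 0.214). Transcript from the gene was therefore still counted in the knockout libraries, and which part of the gene was deleted is not given in the sources used here. Totals lay between 11648710 and 16224818 counts, and Pearson's r of log2 CPM across genes was 0.989 to 0.992 within groups and 0.988 to 0.992 across groups. All 10 macrophage markers listed, such as Adgre1, Csf1r and Cd68, were measured, and 0 of them passed. Their summed levels were 6284 to 7258 CPM in knockout and 6734 to 7259 CPM in control libraries. For 2 of the 10 (20%), Fcgr1 and Adgre1, every knockout library lay below every control library, against 5.45% of all genes. Fcgr1 had 149, 177 and 205 CPM in knockout libraries, against 236, 206 and 228 CPM in control libraries (log2 change -0.33 with SE 0.11). The log2 fold changes were below 0 for 6 of the 10 markers and above 0 for 4. The 12 measured of 16 markers of neutrophils and their precursors summed to 1349 to 1587 CPM in knockout and 844 to 1167 CPM in control libraries, and 5 of them rose. Of 9 stromal markers 5 were measured, at 11.4 to 16.7 CPM against 7.39 to 10.9 CPM, and 2 of them rose. The 6 megakaryocyte and platelet markers summed to 1196 to 1329 CPM in knockout and 1422 to 1714 CPM in control libraries. Pf4 makes up nearly all of that sum, at 1166, 1270 and 1299 CPM in knockout libraries, against 1451, 1697 and 1403 CPM in control libraries. The other 5 markers had log2 fold changes above 0, and in 4 of them every knockout library lay above every control library. Among these 4, Tubb1 and Gp9 were also under 1 CPM in every control library and above it in every knockout library. The same limit holds for them. None of the 6 passed, and 5 had an unadjusted p under 0.05. No measured marker of these lists was at 0 counts in any library, and their part in the values below was not tested. In such a mixture fewer cells of a type and less RNA per cell cannot be told apart.

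With a threshold of 0.05 on the adjusted p of edgeR's quasi-likelihood test, 0 of the 51 factor genes were higher (0.0948% of all genes) and 0 were lower (0.00948% of all genes) in the knockout libraries, and 0.104% of all genes passed either way. DESeq2 and limma-voom also called 0 of them. At an unadjusted p under 0.05 there was 1 factor gene, Gspt1, on the higher side, against 6.48% of all genes (3.84% higher and 2.64% lower). That count depends on the libraries, with 4 factor genes without control library 1, 3 without knockout library 3, and 2 without knockout library 1 or without control library 2. The smallest adjusted p was 0.547 and the log2 fold changes ran from -0.48 (Eef2kmt) to 0.29 (Gspt1). Below 0 were 33 of 51 (64.7%), against 51.3% of all genes, and the median was -0.049 over the factor genes and -0.0044 over all genes. The median of the factor genes was -0.030 without knockout library 1 and -0.031 without control library 2.

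The intervals give the size of change that these libraries leave room for. For 46 of the 51 genes the 95% interval of the fold change lay within 1.5-fold either way (90.2%), against 71.9% of all genes, for 26 it lay within 1.25-fold, against 32.2% of all genes, and for 50 within 2-fold, against 91.2% of all genes. The 5 genes with wider intervals were Eif2b3, Eif2b4, Eif4ebp2, Eif4ebp3 and Eef2kmt, each at 10.1 CPM or less in every library. The median coefficient of variation of a factor gene was 5.84% among knockout and 6.93% among control libraries, against 10.2% and 10.5% over all genes. The factor genes are also more abundant than most, with a median percentile of 77.9 in level per kilobase of exon. No comparison with genes of like level was made, so these values do not show that factor genes are unusually steady.

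In 8 of the 51 genes (15.7%) the groups did not overlap, against 11.2% of all genes, and a group of 3 against 3 cannot go below an exact two-sided permutation p of 0.1. Every knockout library was above every control library for 3 genes, Gspt1, Eif3b and Eif2d, against 5.73% of all genes. Every knockout library was below every control library for 5 genes, Eif2b5, Eif2b2, Eif3h, Eif3k and Eef1a1, against 5.45% of all genes. With plain library totals the groups overlapped for Eef1a1, and they no longer did for Eif3f, which was then higher in every knockout library.

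**Figure D1:**
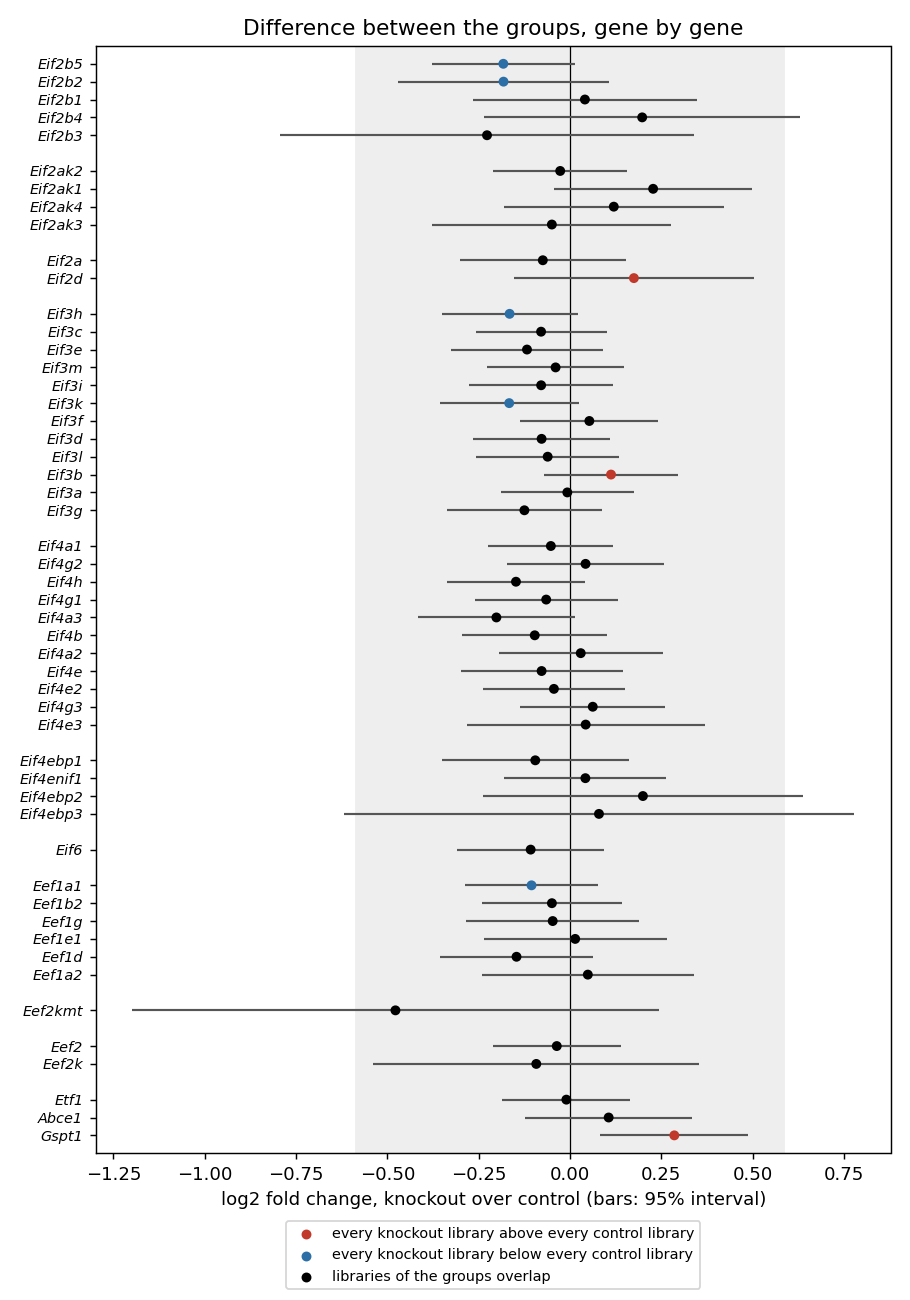
Log2 fold change of each of the 51 factor genes, knockout over control, with its 95% interval as a bar, in blocks by complex; the grey band spans 1.5-fold either way and colours mark genes whose 3 knockout and 3 control libraries do not overlap. The interval of 46 genes stays inside the band, Gspt1 is the gene whose interval leaves out 0, and the widest interval is that of Eef2kmt.

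Levels of different genes were compared per length, as CPM per kilobase of the summed exon length in the deposited table. The factor genes spanned a 2135-fold range on that scale and had a median percentile of 77.9 among all genes, with 13 of 51 above the percentile 90. Eef1a1 stood highest at 2120 CPM per kilobase over all libraries, rank 22 of 10551, followed by Eef2 at 407, Eif4a1 at 207 and Eif4g2 at 121. At the low end were Eef2k at 0.993, Eif2b3 at 1.06 and Eif4ebp3 at 1.68 CPM per kilobase. Summed exon length counts every annotated exon, so a gene with a long exon that these cells do not use reads lower than it is. Exons of 1 other annotated gene cover at least 10% of the length of 5 factor genes, on the opposite strand for Eif3d (32.7%), Eef2kmt (22.1%) and Eif2ak3 (10.8%) and on the same strand for Eif4ebp3 (43.5%) and Eif4e3 (14.8%). The levels and shares of these genes are uncertain to that extent. For Eif3d, Eef2kmt and Eif2ak3 the reason is that whether counting used strand is not given in the sources used here. For Eif4ebp3 and Eif4e3 the use of strand would not separate the overlapping genes.

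**Figure D2:**
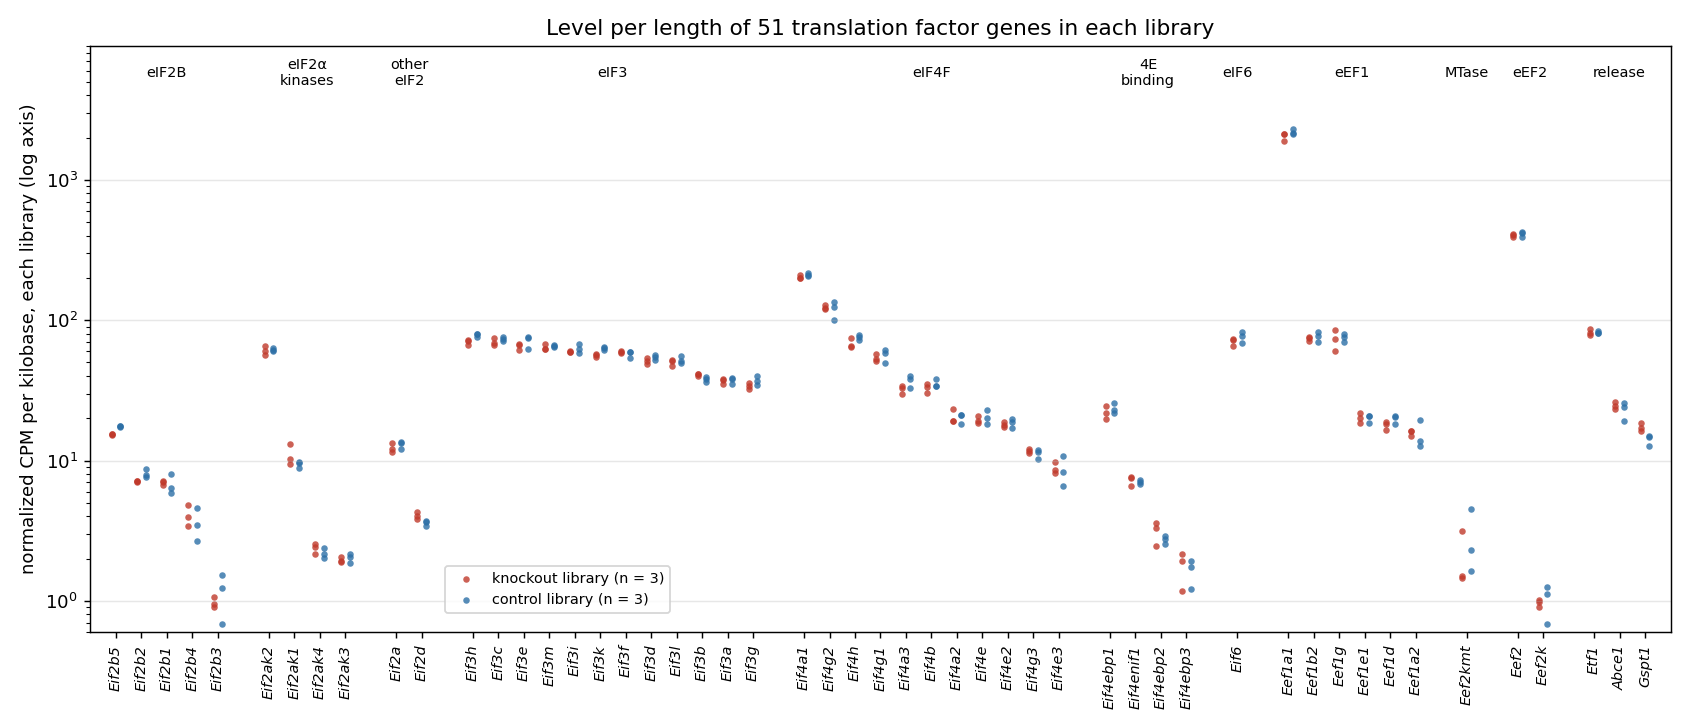
Level of each factor gene in each library, as normalized CPM per kilobase on a log axis, with the 3 knockout libraries to the left of the 3 control libraries and genes ordered by level within each complex. The 12 eIF3 genes form a plateau between 35.5 and 74.1 on average, whereas eIF2B, eIF4F, eEF1 and eEF2 genes are spread over wider ranges.

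eIF3 is the largest initiation factor, and in mammals most of its subunits are present once per complex. Its 12 measured genes lay within a 2.09-fold range of levels per kilobase, from 35.5 for Eif3g to 74.1 for Eif3h, with a coefficient of variation of 23.6% between genes. The 5 eIF2B genes had one of 81.1% and the 11 eIF4F genes one of 110%. The order from the top was Eif3h, Eif3c, Eif3e, Eif3m, Eif3i, Eif3k, Eif3f, Eif3d, Eif3l, Eif3b, Eif3a and Eif3g, and in 7 of the 11 neighbouring pairs the gap was smaller than the larger SD of the pair over the 6 libraries. Eif3c at 71.8 and Eif3e at 68.0 CPM per kilobase are such a pair. Eif3b, Eif3a and Eif3g, at 39.5, 37.2 and 35.5 CPM per kilobase, formed the low end below Eif3l at 51.0.

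None of the 12 eIF3 genes passed, and 10 had a log2 fold change below 0, with a median of -0.078 that was -0.047 without control library 2. Eif3h, a subunit of the MPN-domain group, had 88.5, 81.7 and 87.1 CPM in knockout libraries, against 97.5, 97.6 and 93.6 CPM in control libraries. Its libraries did not overlap, and the log2 fold change was -0.17 (SE 0.088), with an adjusted p of 0.835 (edgeR's quasi-likelihood test). Eif3k, which encodes a small PCI-domain subunit at the edge of the complex, had 63.1, 61.8 and 60.3 CPM in knockout libraries, against 69.6, 70.8 and 67.3 CPM in control libraries (log2 change -0.17 with SE 0.090). The fitted level of both genes in knockout was 0.89 of that in control. Eif3b, which encodes a scaffold subunit that holds Eif3g and Eif3i proteins, ran the other way, with 119, 122 and 124 CPM in knockout libraries, against 113, 108 and 117 CPM in control libraries (log2 change 0.11 with SE 0.086, adjusted p = 0.900). Among the other 9 genes the libraries overlapped, with log2 fold changes from -0.12 for Eif3g to 0.053 for Eif3f.

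Summed over the 12 genes, eIF3 reached 655, 663 and 654 CPM per kilobase in knockout libraries, against 680, 697 and 694 in control libraries. The sums do not overlap, at a ratio of 0.952. That separation depends on the scaling. With plain library totals the sums were 671, 660 and 658 in knockout libraries, against 665, 705 and 685 in control libraries. When each library was scaled to the same sum of per-kilobase values, they were 1435 to 1446 in knockout and 1390 to 1534 in control libraries, so they overlapped under both. Lyz2, a short and very abundant transcript that fell by 1.04 on the log2 scale (adjusted p = 7.2e-05), is counted in the per-kilobase total of each library. Its part in the overlap of the eIF3 sums was not tested.

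eIF4F joins the cap-binding protein eIF4E, the scaffold eIF4G and the helicase eIF4A, with eIF4B and eIF4H as helpers of the helicase. Of its 11 measured genes none passed, and 7 had log2 fold changes below 0, with a median of -0.052. Eif4a1, the main helicase gene, had 397, 376 and 373 CPM in knockout libraries, against 388, 406 and 395 CPM in control libraries. The libraries overlapped, with a log2 fold change of -0.052 and a 95% interval of -0.22 to 0.12. Eif4a3, whose product is part of the exon junction complex, had the smallest p of the group, with 49.4, 43.8 and 47.9 CPM in knockout libraries, against 58.5, 48.4 and 55.5 CPM in control libraries. Its lowest control library lay below the highest knockout library (log2 change -0.20 with SE 0.10, adjusted p = 0.819).

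Eif4h had 181, 157 and 156 CPM in knockout libraries and 189, 183 and 175 CPM in control libraries (log2 fold change -0.15), and Eif4b was at -0.096. The cap-binding genes Eif4e (-0.078), Eif4e2 (-0.044) and Eif4e3 (0.043) lay close to 0. Eif4e3 was the lowest of the group per kilobase, at 8.69, and control library 2 had 27.1 CPM, against 16.4 CPM in control library 1.

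The helicase, scaffold and cap-binding families draw on paralogs, and the shares named here overlapped between the groups. Eif4a1 made up 79.4 ± 1.24% of the per-kilobase level of the 3 Eif4a genes in knockout and 78.7 ± 1.10% in control libraries (SD, n = 3 each). Eif4g2 encodes a scaffold without the eIF4E-binding site that Eif4g1 and Eif4g3 have. It gave 65.7%, 64.9% and 65.2% of the eIF4G level in knockout libraries, against 57.8%, 69.0% and 64.2% in control libraries. The control libraries therefore spread more than the knockout libraries around it. Its CPM also varied more among control libraries, at 937, 990 and 940 in knockout libraries, against 777, 1042 and 964 in control libraries. Among the cap-binding genes no paralog dominated, with Eif4e at 41.9 ± 1.10% in knockout and 43.0 ± 0.610% in control libraries, and Eif4e2 at 39.0 ± 2.07% and 39.2 ± 2.12%.

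The 4E-binding proteins compete with eIF4G for the same face of eIF4E. The stretch of coding sequence behind that competition is short enough to show in both kinds of gene. It was searched in the translated GENCODE M21 coding sequences as tyrosine, aspartate, arginine, any residue, phenylalanine and leucine, and it occurs 1 time in each gene below. Capitals mark the codons of the tyrosine and the leucine, and positions count from the first base of the coding sequence. Eif4g1 lies on chromosome 16 (coding bases 1846 to 1863), Eif4g3 on chromosome 4 (1855 to 1872), Eif4ebp1 on chromosome 8 (157 to 174) and Eif4ebp2 on chromosome 10 (160 to 177).
Eif4g1: TATgacagagaattcCTG
Eif4g3: TATgaccgggagttcCTA
Eif4ebp1: TATgaccggaaatttCTG
Eif4ebp2: TATgaccgaaagtttCTG
The gene for the scaffold without that site, Eif4g2 on chromosome 7, has a coding sequence annotated to begin at a GTG codon, given here in capitals with the bases that follow.
Eif4g2: GTGgagagtgcgattgcagaagggggtgct

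None of the 4 genes of eIF4E-binding proteins passed. Eif4ebp1, the repressor that mTOR phosphorylates, had 24.1, 21.2 and 19.5 CPM in knockout libraries, against 22.5, 25.1 and 21.5 CPM in control libraries, a log2 fold change of -0.095 (SE 0.12). It made up 81.7%, 82.4% and 81.5% of the 4E-BP level per kilobase in knockout libraries, against 82.7%, 85.0% and 85.4% in control libraries. These shares do not overlap between the groups, but they rest on Eif4ebp2 and Eif4ebp3, which had 52 to 97 and 16 to 32 counts per library. Eif4ebp2 had 6.40, 4.42 and 5.95 CPM in knockout libraries, against 5.14, 4.95 and 4.52 CPM in control libraries (log2 change 0.20 with SE 0.21). Of the exons of Eif4ebp3, 43.5% of their length is shared on the same strand with another annotated gene, so its counts are uncertain. Eif4enif1, whose product carries eIF4E to the nucleus, was at 0.042 (SE 0.10). Eif4e and Eif4ebp1 stood at nearly equal levels per kilobase, with a ratio of 0.890 ± 0.138 in knockout and 0.872 ± 0.0658 in control libraries (SD, n = 3 each).

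**Figure D3:**
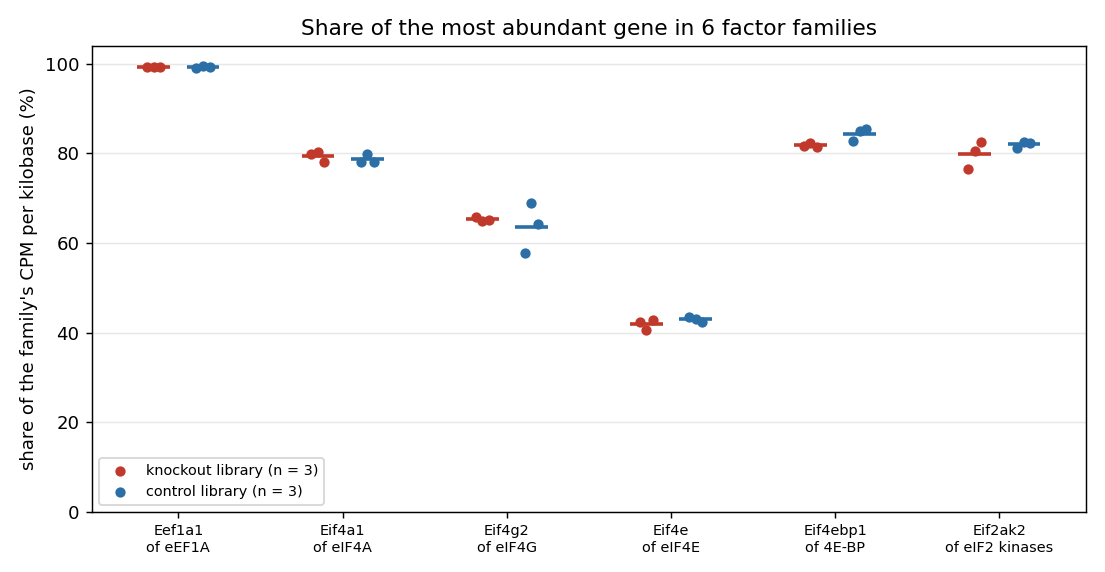
Share of each family's summed CPM per kilobase that comes from the gene named, in each of 3 knockout libraries (left) and 3 control libraries (right), with the mean as a line. Eef1a1 gives over 99% of the eEF1A level in all 6 libraries, whereas Eif4e gives 40.7% to 43.6% of the eIF4E level.

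eIF2B is the complex whose activity sets how much active eIF2 a cell has, and its epsilon subunit, encoded by Eif2b5, catalyses the exchange. Eif2b5 had 39.7, 39.0 and 39.4 CPM in knockout libraries, against 45.2, 44.0 and 44.8 CPM in control libraries. The groups did not overlap and varied little, with coefficients of variation of 0.912% in knockout and 1.32% in control libraries. The log2 fold change was -0.18 (SE 0.093, 95% interval -0.38 to 0.014), and Eif2b5 did not pass edgeR's quasi-likelihood test (adjusted p = 0.823). Eif2b2, the beta subunit, had 11.2, 11.0 and 11.3 CPM in knockout libraries, against 13.6, 12.0 and 12.3 CPM in control libraries (log2 change -0.18 with SE 0.14, adjusted p = 0.899). Its groups did not overlap either.

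The log2 fold changes of the other eIF2B genes lay on both sides of 0, with overlapping groups. Eif2b1 was at 0.041 (SE 0.15), and at -0.050 to 0.18 with each library left out in turn. Eif2b4 was at 0.20 (SE 0.20), and at 0.023 without control library 1 and 0.40 without control library 3, with its level ranging from 7.22 to 10.1 CPM among knockout and from 5.57 to 9.65 CPM among control libraries. Eif2b3 had 43 to 71 counts per library and a log2 fold change of -0.23 (SE 0.27). Per kilobase the subunits ran from 16.4 for Eif2b5 to 1.06 for Eif2b3, a 15.5-fold range.

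The eIF2 kinases sense different stresses: Eif2ak1 a lack of haem, Eif2ak2 (PKR) double-stranded RNA, Eif2ak3 (PERK) unfolded proteins in the endoplasmic reticulum and Eif2ak4 (GCN2) a lack of amino acids. Eif2ak2, which interferon induces, was the highest of them, with 79.8 ± 3.08% of their summed level per kilobase in knockout and 82.0 ± 0.646% in control libraries (SD, n = 3 each). It had 245, 259 and 285 CPM in knockout libraries, against 267, 263 and 275 CPM in control libraries, with overlapping groups and a 95% interval from -0.21 to 0.16 on the log2 scale. Eif2ak1 had 33.7, 26.6 and 24.3 CPM in knockout libraries, against 25.0, 22.6 and 24.6 CPM in control libraries. The difference is mostly that of knockout library 1. Its log2 fold change was 0.23 with all libraries (SE 0.13, adjusted p = 0.838) and 0.083 without that library. Eif2ak4 (0.12) and Eif2ak3 (-0.050) did not pass, and Eif2ak3 was the lowest of the 4 at 1.99 CPM per kilobase.

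Eif2a and Eif2d carry the eIF2 name without being subunits of eIF2. Eif2d, whose product can deliver and remove tRNA on the small subunit, had 9.90, 9.22 and 8.77 CPM in knockout libraries, against 7.85, 8.49 and 8.35 CPM in control libraries. The groups did not overlap (log2 change 0.17 with SE 0.16, adjusted p = 0.911). Eif2a was at -0.074. Eif6, whose product keeps free large ribosomal subunits from joining small ones, had 97.8, 110 and 109 CPM in knockout libraries, against 123, 115 and 103 CPM in control libraries, which overlap (log2 change -0.11 with SE 0.095, adjusted p = 0.911).

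eEF1A is among the most abundant proteins of the cell, and its gene Eef1a1 (mm10, chromosome 9, bases 78478454 to 78481724, minus strand) was the most abundant of the factors here. It had 3793, 3391 and 3780 CPM in knockout libraries, against 3871, 4098 and 3824 CPM in control libraries. The groups did not overlap, although the nearest libraries of the groups, at 3793 and 3824 CPM, are close, and with plain library totals the groups overlapped, at 3885, 3377 and 3800 CPM in knockout libraries, against 3782, 4144 and 3775 CPM in control libraries. The test gave no call (log2 change -0.11 with SE 0.087, 95% interval -0.29 to 0.078, adjusted p = 0.908). Eef1a1 is known to have many processed pseudogenes, and how reads that match several places were counted is not given in the sources used here.

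Eef1a2 encodes the form of eEF1A known from muscle and neurons. It was counted at 33.0, 30.5 and 33.0 CPM in knockout libraries, against 39.5, 25.8 and 28.0 CPM in control libraries, with a log2 fold change of 0.049 (SE 0.14). Per kilobase, Eef1a1 was 130 ± 2.25 times as high as Eef1a2 in knockout and 150 ± 35.2 times in control libraries (SD, n = 3 each). The coding sequences are 80.0% identical when aligned, and their longest identical run is 23 bases. None of the 1340 windows of 50 bases in the Eef1a1 coding sequence occurs in that of Eef1a2. The opening 60 coding bases, from GENCODE M21, show how the genes can be told apart, with the 11 differing bases in capitals.
Eef1a1: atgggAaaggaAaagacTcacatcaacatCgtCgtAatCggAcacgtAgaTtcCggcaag
Eef1a2: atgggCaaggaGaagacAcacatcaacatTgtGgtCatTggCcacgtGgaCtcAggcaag
The helicase genes Eif4a1 and Eif4a2 are 77.8% identical when aligned, with a longest identical run of 20 bases. Their opening 60 coding bases were compared position by position, without alignment, and differ at 38 places, given in capitals. The coding sequences have different lengths, 1221 and 1227 bases, so these 38 places are not a count of substitutions.
Eif4a1: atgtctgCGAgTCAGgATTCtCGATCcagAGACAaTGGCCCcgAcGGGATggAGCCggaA
Eif4a2: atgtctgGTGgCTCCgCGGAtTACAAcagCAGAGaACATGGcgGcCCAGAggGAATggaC

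The remaining eEF1 genes encode the exchange factors of eEF1A, apart from Eef1e1, whose product belongs to the multi-synthetase complex. Eef1d had 56.8, 49.7 and 54.9 CPM in knockout libraries, against 62.8, 61.1 and 54.6 CPM in control libraries, which overlap (log2 change -0.15 with SE 0.099, adjusted p = 0.876). Eef1b2 (-0.049), Eef1g (-0.047) and Eef1e1 (0.014) did not pass. Eef1g spread most among knockout libraries, at 132, 94.2 and 114 CPM, against 124, 119 and 110 CPM in control libraries.

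Eef2, the translocation factor (chromosome 10, bases 81176631 to 81182509, plus strand), had 1247, 1279 and 1208 CPM in knockout libraries, against 1328, 1209 and 1292 CPM in control libraries. Its interval was among the narrowest of all, with a log2 fold change of -0.036 between -0.21 and 0.14. Eef2k, the kinase that inhibits eEF2, had 6.81, 6.59 and 6.07 CPM in knockout libraries, against 8.43, 7.52 and 4.61 CPM in control libraries (log2 change -0.092 with SE 0.21). The gene Eef2kmt, for a methyltransferase that acts on eEF2, had the largest fold change of the factor genes and the least certain. It had 3.23, 3.10 and 6.68 CPM in knockout libraries, against 3.50, 9.71 and 4.96 CPM in control libraries. A single library in each group, knockout library 3 and control library 2, was far above the others. The log2 fold change was -0.48 (SE 0.34, adjusted p = 0.885), 0.067 without control library 2 and -0.94 without knockout library 3. The exons that cover part of Eef2kmt on the opposite strand are those of Alg1 (22.1% of its length) and of the antisense gene Gm15983 (5.42%). The part of both genes in these values was not tested. Alg1 had 11.5, 14.0 and 11.0 CPM in knockout libraries, against 13.4, 11.8 and 10.6 CPM in control libraries.

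Termination needs eRF1, encoded by Etf1, which reads the stop codon, and its GTPase partner eRF3a, encoded by Gspt1, while Abce1 encodes the ATPase that splits the ribosome afterwards. Gspt1 (chromosome 16, bases 11216241 to 11254325, minus strand) had 117, 126 and 111 CPM in knockout libraries, against 86.8, 103 and 100 CPM in control libraries. The groups did not overlap, and the level was 1.22-fold in knockout relative to control (log2 change 0.29 with SE 0.096, 95% interval 0.083 to 0.49). Gspt1 did not pass when edgeR's quasi-likelihood test was adjusted over the whole table (unadjusted p = 0.0086, adjusted p = 0.547), and its log2 fold change was 0.21 to 0.34 with each library left out in turn.

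Etf1 was the gene in this group with the narrowest interval, at 318, 299 and 289 CPM in knockout libraries, against 300, 312 and 300 CPM in control libraries (log2 fold change -0.0098, 95% interval -0.18 to 0.17). Per kilobase, Etf1 stood at 4.73 ± 0.327 times Gspt1 in knockout and 5.82 ± 0.480 times in control libraries (SD, n = 3 each), and these ratios did not overlap. Abce1 had 88.5, 100 and 93.8 CPM in knockout libraries, against 73.3, 97.9 and 91.4 CPM in control libraries. It overlapped between groups (log2 change 0.11 with SE 0.11, adjusted p = 0.932), and without control library 1 its log2 fold change was -0.0077.

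mRNAs with a terminal oligopyrimidine (TOP) start, whose translation depends on mTOR, are known for ribosomal proteins and for some of the factor genes. A textbook list of 9 was used here: Eef1a1, Eef1b2, Eef1d, Eef1g, Eef2, Eif3e, Eif3f, Eif3h and Eif4b. It may not be complete, so the other 42 factor genes may also hold TOP genes. Eif3e, Eif3f and Eif3h are also among the eIF3 genes described above. None of the 9 passed, and 8 had a log2 fold change below 0, against 51.3% of all genes, with a median of -0.096, against -0.0044 over all genes and -0.042 over the other 42 factor genes. Eif3f was the exception at 0.053. The 9 genes are also abundant, with a median percentile of 91.5 in level per kilobase, against 74.6 for the other 42. Log2 fold change and that level had a Spearman rho of -0.24 across the 51 factor genes and -0.11 across all genes. The part of level in the TOP values was not tested. Without knockout library 2 the 9 genes had 7 below 0 and a median of -0.056, and without control library 2 they had 7 and a median of -0.062. RNA levels do not measure translation, so these values say nothing on how well the mRNAs were translated.

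The median shift of the factor genes can also be given library by library. The median deviation of the 51 genes from their own mean, on the log2 scale, was -0.0078, -0.024 and -0.020 in knockout libraries, against 0.016, 0.045 and 0.022 in control libraries. Over all genes it lay between -0.00011 and 0.0057 in every library. Each gene was centred on its own mean over the 6 libraries, so these medians restate the fold changes above and are no separate evidence. The centring and the scaling also hold the values over all genes near 0. Across the 51 genes log2 fold change and exon length had a Spearman rho of 0.30, and across all 10551 genes of 0.12, as a description only, since all genes share the same 6 libraries and their scaling. The genes of this set are shorter, with a median exon length of 2299 bases, against 2958 bases over all genes.

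Control libraries 1 and 2 stood apart for part of the factors. In 15 of the 51 genes (29.4%), control library 1 was the lowest and control library 2 the highest of the controls, as for Eif4g2, Eif4e3, Eif3e, Eif3i and Abce1, against 17.1% of all genes. Control library 2 held the highest value of all 6 libraries for 16 factor genes (31.4%), against 16.2% of all genes.

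**Figure D4:**
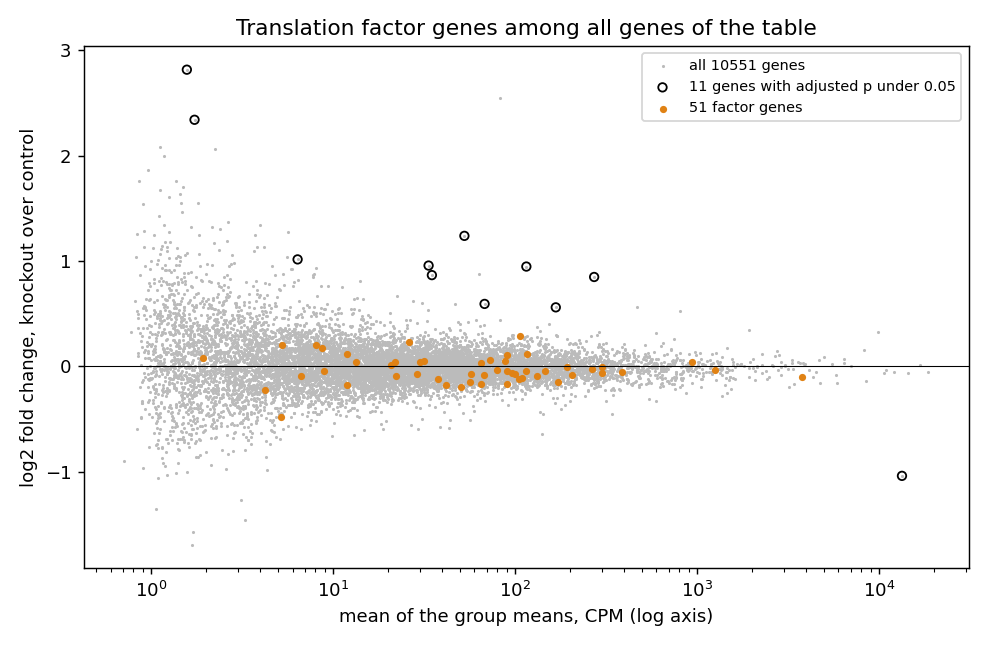
Log2 fold change, knockout over control, against the mean level in CPM (log axis) for all 10551 genes (grey), the 51 factor genes (orange) and the 11 genes with an adjusted p under 0.05 (circles). The factor genes lie between -0.48 and 0.29, and none is circled.

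The proteins that work with these factors were described by a list of 66 symbols, of which 65 were measured. One of them rose, Eif1, a factor of start codon choice, with 212, 194 and 193 CPM in knockout libraries, against 137, 137 and 133 CPM in control libraries (log2 change 0.56 with SE 0.085, adjusted p = 0.0081), and none fell. Eif1 no longer passed when control library 2 (adjusted p = 0.082) or control library 3 (adjusted p = 0.073) was left out. The 64 others did not pass, and the median of the list was 0.032. Next by p on the higher side came Impact, an inhibitor of GCN2 activation, with 38.2, 43.8 and 36.0 CPM in knockout libraries, against 32.8, 34.2 and 32.2 CPM in control libraries (log2 change 0.25 with SE 0.10, adjusted p = 0.710), and Mtrf1, a mitochondrial release factor, at 0.58 (SE 0.29). On the lower side came Dph7 (-0.55, SE 0.30), which acts in making the diphthamide of eEF2, Denr (-0.19, SE 0.11), which works with Mcts1 on reinitiation, and Zfp598 (-0.21, SE 0.15), a ubiquitin ligase for collided ribosomes. Of the 13 genes of mTORC1 and MNK signalling, the 7 of diphthamide synthesis and the 9 mitochondrial translation factors none passed.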

How the data were processed

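Per the labels' protocols, the 6 RNA libraries were read on an Ion Proton sequencer. The values deposited by the authors are raw counts of reads for each gene, not normalized, beside exon positions and the summed length of exons in bases, a value of another kind (other than a count). Tools named in the submitters' processing notes, without role or order, are edgeR, featureCounts, STAR (2.4.2a) and Subread (1.5.0), with mm10 as the build. Annotation and use of strand are not given in the sources used here. In every gene the third highest value exceeded 1 CPM, so the deposited table looks filtered at that level.

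Counts were scaled by the trimmed mean of M values and filtered with filterByExpr (minimum count 10), which removed 0 of 10551 genes. All genes were tested together with edgeR 4.0.16 in R 4.3.3 (quasi-likelihood test, two-sided, genotype as the only term), with Benjamini-Hochberg adjustment of p-values over the 10551 genes and a threshold of 0.05. An SE is the size of the log2 fold change over the root of F. Levels of genes were compared as CPM per kilobase of exon. Alternatives used DESeq2 1.42.0, limma 3.58.1, other scalings and filters, a replicate block and left-out libraries. Coding sequences and exon overlaps came from GENCODE M21 (mm10), which matched all 51 symbols, and no protein table was used here.

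Members, complexes and lists were chosen with earlier results of these data known. The rule for named genes took, in each complex, the 3 smallest p and the highest and lowest level per kilobase, whole small families, Dhps, Eif1 and the 3 partner genes with the smallest p each way. Other members, Alg1 and Lyz2 were named after their values were seen.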

Additional observations from a re-analysis of the deposited data

How the results depend on the processing

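The count of 0 factor genes called held under all 14 alternatives. Among them, the run with no filter repeats the main fit, since the filter removed 0 genes, and the threshold of 0.1 reads that same fit. Over all genes the number called was 11 in the main test, 35 with the replicate block and 22 with DESeq2. With a library left out it was 4 (without control library 2) to 19 (without control library 1), and 7 without control library 3. The labels do not pair same-numbered libraries. Deviations correlated at 0.158, 0.022 and 0.156 for same-numbered libraries, and at -0.21 to 0.079 for the other combinations. Of the control libraries, control library 3 had the highest correlation with knockout library 2, at 0.079. Whether same-numbered libraries were prepared together is not given, so the block cannot be read as a paired design. With the block Dhps passed (adjusted p = 0.033), and the smallest adjusted p of a factor gene was 0.210. The number of factor genes without overlap was 12 to 17 with a library left out, where fewer libraries make separation easier (19.1% to 23.5% of all genes). The median log2 fold change of the factor genes was -0.026 with no size factors, where that of all genes was 0.019, and -0.054 to -0.030 with a library left out. The count of partner genes called was 0 to 1 with a library left out. The eIF3 ratio of 0.952 was 0.954 with DESeq2 size factors, 0.968 with none and 0.984 on the per-kilobase sum, the last chosen after seeing the data. The eIF2B median was -0.18, and 0.0051 without control library 3. With no size factors the log2 fold changes of Eif3a (0.017) and Etf1 (0.014) changed sign. With a library left out, 18 of the 51 genes, none of them called, changed sign: Abce1 (-0.0077 to 0.20), Eef1a2 (-0.069 to 0.26), Eef1b2 (-0.11 to 0.011), Eef1e1 (-0.045 to 0.068), Eef1g (-0.17 to 0.070), Eef2k (-0.30 to 0.077), Eef2kmt (-0.94 to 0.067), Eif2ak2 (-0.085 to 0.027), Eif2b1 (-0.050 to 0.18), Eif2b3 (-0.50 to 0.027), Eif3a (-0.047 to 0.034), Eif4a2 (-0.068 to 0.083), Eif4e (-0.15 to 0.023), Eif4e2 (-0.10 to 0.0056), Eif4e3 (-0.12 to 0.26), Eif4ebp3 (-0.094 to 0.31), Eif4g2 (-0.070 to 0.14) and Etf1 (-0.045 to 0.025). The cause of these changes was not tested.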
